A study of Drosophila melanogaster with 837 samples.

Results

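Among the single cells sequenced by Smart-seq2 from late Drosophila melanogaster embryos, 83 (9.92%) carried reads of esg and lacked the reads that mark the main cell types of the sort, and these esg-positive cells were divided by their Hox reads. Both groups were selected on measured reads. Of the cells with at least 500 genes at 10 or more reads (96.7% of all cells), a member had at least 10 reads of esg, fewer than 10 of Ppn, fewer than 100 of Mhc, and not all of apolpp, FASN1 and prc at 10 or more. A cell was called Hox-positive with at least 10 reads of any of Abd-B, abd-A, Ubx, Antp, Scr and lab (24 cells), and Hox-negative with fewer than 10 reads of all 6 (59 cells).

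All cells came from 1 stock, Mhc-TAU-GFP, in which GFP follows the muscle gene Mhc, at 19 to 20 h of embryogenesis. No genotype, treatment or time was varied. Cells were taken from pooled embryos as GFP-positive, DRAQ5-positive and DAPI-negative, and primers for the 7 Hox genes were added at reverse transcription and PCR, since the study used the Hox code to place a cell along the body axis. The labels put all cells in 1 group on 15 plates and name no animal or culture, so they are 1 sample: differences are described by a rule of size, with no test, and the exact 95% (Clopper-Pearson) intervals on shares cover counting error only.

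Hox genes encode homeodomain TFs that assign positions along the anterior-posterior axis, in an order that follows their order on the chromosome, with lab at the anterior end and Abd-B at the posterior end. Apart from the head and trunk, they act in the gut, where lab is required in the endoderm of the middle midgut. The gene esg encodes a zinc finger TF of the Snail family that marks diploid imaginal cells and the progenitors of the adult midgut. Many of the latter remain as undifferentiated cells in the gut wall through embryonic and larval life.

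The labelled tissue was muscle, but few of its genes were detected in the median member. Mhc, which the sort followed, reached 10 reads in 3 of 83 members, all Hox-negative, and its highest value was 91 reads. That Mhc is low was set by the rule. Among 20 genes of the contractile apparatus, the median member had 2 detected when Hox-positive and 3 when Hox-negative, although Msp300, a nesprin that anchors muscle nuclei, was detected in every member. Genes listed as midgut progenitor factors, not all of them TFs or particular to progenitors, were detected instead: of 11 listed, the median cell of either group had 4. The genes that define differentiated midgut cells were nearly silent. Their summed level was 0 CPM in every Hox-positive cell and had a median of 0 CPM in Hox-negative cells, where CPM stands for reads of a gene scaled to 1000000 reads of the cell outside ribosomal RNA. The 20 contractile genes summed to a median of 2150 CPM (376.1 to 7635) in Hox-positive and 2578 CPM (538.7 to 35377) in Hox-negative cells.

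The Hox reads of the esg-positive cells came mostly from a single gene. The gene lab (3R, 6661427 to 6678590, BDGP6, minus strand) was detected in 16 of 83 cells, or 19.3% (interval 11.4 to 29.4). In these 16 cells it had 12 reads at the lowest, 158.5 at the median and 1087 at the highest. Abd-B and abd-A were each detected in 4 cells, and Ubx, Antp and Scr each in 1. The 4 abd-A cells had levels of 2887, 1913, 1441 and 199.4 CPM. The 4 Abd-B cells had 465.6, 334.9, 163.2 and 14.4 CPM. Ubx stood at 1130 CPM in its cell, Scr at 140.9 and Antp at 83.1 CPM, and the levels of lab ranged from 13.2 to 1496 CPM. No lab cell reached 10 reads of another Hox gene, and the highest value in these cells was 2 reads of Abd-B. The 6 genes lie on chromosome 3R in the 2 Hox complexes of the fly. Only genes of the bithorax complex (Ubx, abd-A and Abd-B) were detected together, abd-A with Abd-B in 1 cell and all 3 in another. Dfd, the remaining targeted Hox gene, had 0 reads in every member.

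**Figure D1:**
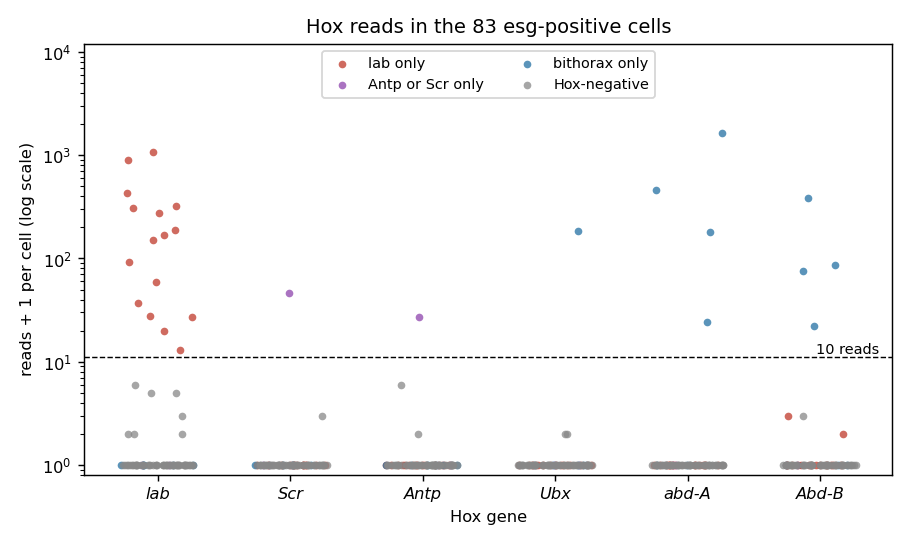
Reads + 1 of each Hox gene (log scale) in each of the 83 esg-positive cells, coloured by Hox class; the dashed line marks 10 reads. The 16 lab cells lie above the line for lab and at or near 0 for every other gene, whereas abd-A and Abd-B share 2 cells.

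Few cells stood near the limit. The lowest Hox-positive cells had 12 reads of lab, 19 of lab and 21 of Abd-B, and the highest Hox-negative cell had 5 reads. Of the Hox-negative cells, 47 had 0 reads of all 6 genes and 12 had 1 to 9 reads. The esg limit was met with 16 reads at the lowest, and the highest cell below it, among cells that met the other limits, had 7. The limits on Ppn, Mhc and the fat body genes removed 11 of 94 esg cells.

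The other cells that passed the gene filter had another Hox profile. There lab was detected in 27 of them (3.72%, interval 2.46 to 5.37), and the lab share was higher in the esg-positive cells, with intervals that did not overlap. Antp was detected in 13.9% of the other cells (interval 11.48 to 16.6) against 1 of 83 members (1.205%, interval 0.0305 to 6.53). A bithorax gene was detected in 23.3% of the other cells (interval 20.2 to 26.5) against 6 members (7.23%, interval 2.70 to 15.1). After each cell was thinned to 116161 reads, the lab shares were 16.2% in 74 members (interval 8.67 to 26.6) and 2.04% in the other cells (interval 1.09 to 3.47). The thinned Antp shares were 1.35% (interval 0.0342 to 7.30) and 7.70% (interval 5.75 to 10.06), and these intervals overlapped. The thinned bithorax shares were 4.05% (interval 0.844 to 11.39) and 14.15% (interval 11.54 to 17.1). For any of the 6 Hox genes the thinned shares were 22.97% (interval 13.99 to 34.2) in members and 22.96% (interval 19.7 to 26.4) in the other cells, while the gene detected differed. Of all cells with lab, 37.2% (16 of 43, interval 22.98 to 53.3) were esg-positive members, against 0.980% for Antp, where 1 cell was a member.

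The 27 lab cells outside the members differed from the 16 members in the genes of the rule, which chose them, and also in genes it did not use. The TFs zfh2 and sna were detected in 0 of these 27 cells and in 14 of the 16 members each. The FoxA TF fkh was detected in 3 of 27 against 16 of 16, and exex, a homeodomain TF of the MNX family, in 1 of 27 against 12 of 16. The digestive gene mex1 was detected in 7 of 27 and in 0 of 16.

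Hox-positive cells were unevenly placed on the plates, which are technical units. The share was 28.9% of all members (interval 19.5 to 39.9) and 26.7% ± 24.5 over plates (SD, n = 15 plates). Plates 13 and 14 held 12 of the Hox-positive cells, 10 of them lab cells, among 19 members (63.2%), and the other plates 12 among 64 (18.8%). On 5 plates, with 25 members, no Hox-positive cell was found, and lab cells came from 6 plates. Plate 13 was also deep, with a median of 901150 reads outside ribosomal RNA per member. Hox-positive cells had a median of 528706 such reads (94084 to 1672765) and Hox-negative cells 326113 (68264 to 2229424). For this reason gene detection was compared after thinning, and share differences weighted within plates stand beside the pooled ones. The weighting used only plates with thinned cells of both groups, 9 for all Hox-positive cells and 6 for lab cells. Within-plate values therefore leave out the Hox-negative cells of the other plates. The Hox call itself used all reads of a cell and so depends on depth. After thinning, 17 of 74 members had 10 reads of a Hox gene and 12 had 10 of lab. By all reads, 22 of these 74 were Hox-positive and 16 were lab cells. The part of the plates in the results was not tested otherwise.

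**Figure D2:**
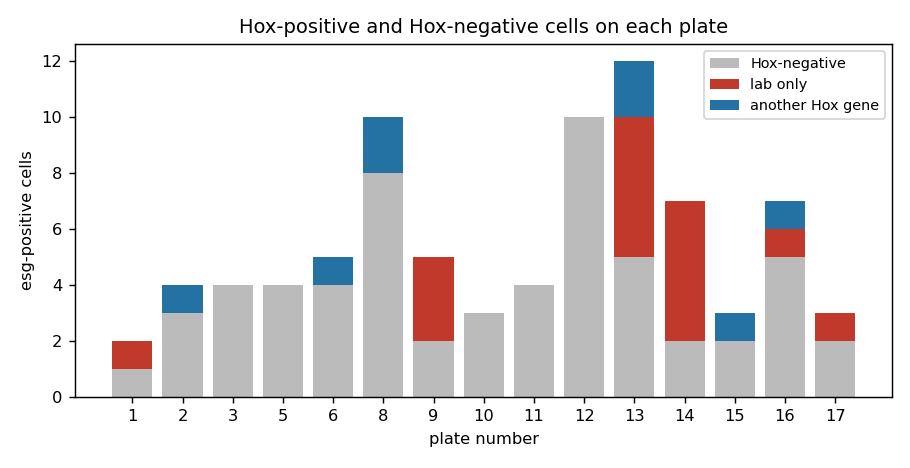
Number of esg-positive cells on each of the 15 plates, stacked as Hox-negative, lab only and another Hox gene. Plates 13 and 14 carry 10 of the 16 lab cells, and on 5 plates no member is Hox-positive.

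For the comparison of the groups, 22 Hox-positive and 52 Hox-negative cells were deep enough, and 2 (both with a bithorax gene) and 7 were left out. A gene passed the rule of size when the shares of cells with 10 thinned reads differed by at least 20 points and the mean CPM by at least 2-fold in the same direction. Of 3132 genes counted, 49 (1.56%) were higher and 93 (2.97%) were lower in Hox-positive cells. The median share difference over all genes counted was -2.97 points. Without thinning, 54 genes were higher and 96 lower, and without plates 13 and 14, which left 10 Hox-positive cells, the shares were 2.65% and 11.01%. Few differences were large against counting error. The intervals of both shares were apart for 3 of the higher genes (AcCoAS, edl and CG5694). They were also apart for 6 of the lower genes (eIF1, CG4789, lark, CG3224, CG31431 and Nsun5), and for 13 of all 3132 genes (0.415%). Most Hox-positive cells with CG5694 lacked lab: it was detected in 5 of 6 cells with another Hox gene and 3 of 16 lab cells. The lab interval for CG5694 (4.05 to 45.6) overlapped that of Hox-negative cells (1.21 to 15.9). CG5694 was in too few cells to be counted when lab cells were compared on their own.

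AcCoAS (FBgn0012034; 3L, 21270722 to 21280243), which encodes acetyl-CoA synthetase and makes acetyl-CoA from acetate, had the largest difference among the higher genes. It was detected in 10 of 22 Hox-positive cells (45.5%, interval 24.4 to 67.8) and in 3 of 52 Hox-negative cells (5.77%, interval 1.21 to 15.9), and the difference was 41.5 points within plates. Its level was 395.4 ± 763.7 CPM against 72.6 ± 374.9 (SD over 24 and 59 cells), so that a few cells carried most of the reads. In the rest of the sort it was common, for 47.8% of the other thinned cells had it.

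Detected most often among the 12 higher genes with the largest differences were CG12177 (X, 13677899 to 13680500) and the tetraspanin Tsp42Eg (2R, 7028911 to 7033233), each in 16 of 22 Hox-positive cells (72.7%, interval 49.8 to 89.3). CG12177 was detected in 19 of 52 Hox-negative cells (36.5%), with a mean of 1486 CPM against 348.7, and Tsp42Eg in 20 of 52 (38.5%), with 1312 CPM against 264.8. Within plates the difference of Tsp42Eg was 43.5 points, and that of CG12177 was 19.1 points, under the 20 points of the rule.

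In the EGFR pathway the receptor signals through the MAP kinase ERK to ETS-domain TFs. The gene edl, whose product lacks an ETS domain and binds the ETS TFs Pnt and Yan, was detected in 10 of 22 cells (45.5%) against 5 of 52 (9.62%, interval 3.20 to 21.03), a difference of 33.7 points within plates. The gene rl, which encodes ERK, was detected in 14 of 22 cells (63.6%) against 16 of 52 (30.8%), but by 17.9 points within plates. The ETS activator pnt was detected in 10 of 22 cells against 13 of 52, a difference of 20.5 points that was 1.47 points within plates and 7.78 points without plates 13 and 14. Of the 9 EGFR pathway genes counted (rl was not on this list), edl and pnt were higher, 0 were lower and 7 did not pass, with a median of -5.59 points, beside 1.56% higher and a median of -2.97 points over all genes counted. Of edl, rl and pnt, edl alone kept 20 points within plates. The ligand spi was detected less often (9 of 22 against 39 of 52 cells), but its mean CPM was 0.842-fold and did not pass, and the receptor Egfr differed by -5.59 points.

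The remaining genes of the 12 were lt, which encodes the Vps41 subunit of the vesicle tethering complex HOPS, and CG42306, Gint3, CG5694, CG7927, CG42554 and CG4896. Their pooled differences were 28.7 to 34.8 points. CG42306 and Gint3 share all their exons and had the same mean of 140.3 CPM, so they count as 1 observation. Within plates these genes differed by 30.4 to 39.8 points.

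The lower gene with the largest difference was eIF1. This initiation factor of translation was detected in 9 of 22 Hox-positive cells (40.9%, interval 20.7 to 63.6) and 43 of 52 Hox-negative cells (82.7%, interval 69.7 to 91.8), at 174.4 ± 238.9 against 422.4 ± 390.9 CPM. Without thinning its difference was -26.4 points. The RNA-binding protein gene lark was detected in 7 of 22 against 38 of 52 cells (31.8% and 73.1%), a difference of -41.3 points that was -21.1 points without plates 13 and 14, and Nsun5, which encodes an RNA methyltransferase, in 1 of 22 against 19 of 52 (4.55% and 36.5%), although 29.04% of its exons overlap CG42359. The nucleostemin-type GTPase gene Ns3 was detected in 3 of 22 against 23 of 52 cells. CG4789 was 5.56-fold lower in mean CPM and was detected in 4 of 22 against 31 of 52 cells.

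The coronin gene coro, whose product binds actin, was detected in 4 of 22 against 26 of 52 cells, a difference of -31.8 points that was -18.3 points within plates. ND-24, a subunit of mitochondrial complex I, was detected in 5 of 22 against 28 of 52 cells. The kinase gene cdi was detected in 4 of 22 against 28 of 52 cells, but without thinning its difference was -18.6 points, under the 20 points of the rule. CG3224, CG31431, CG11444 and CG8034 completed the 12, with differences of -32.5 to -40.0 points.

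**Figure D3:**
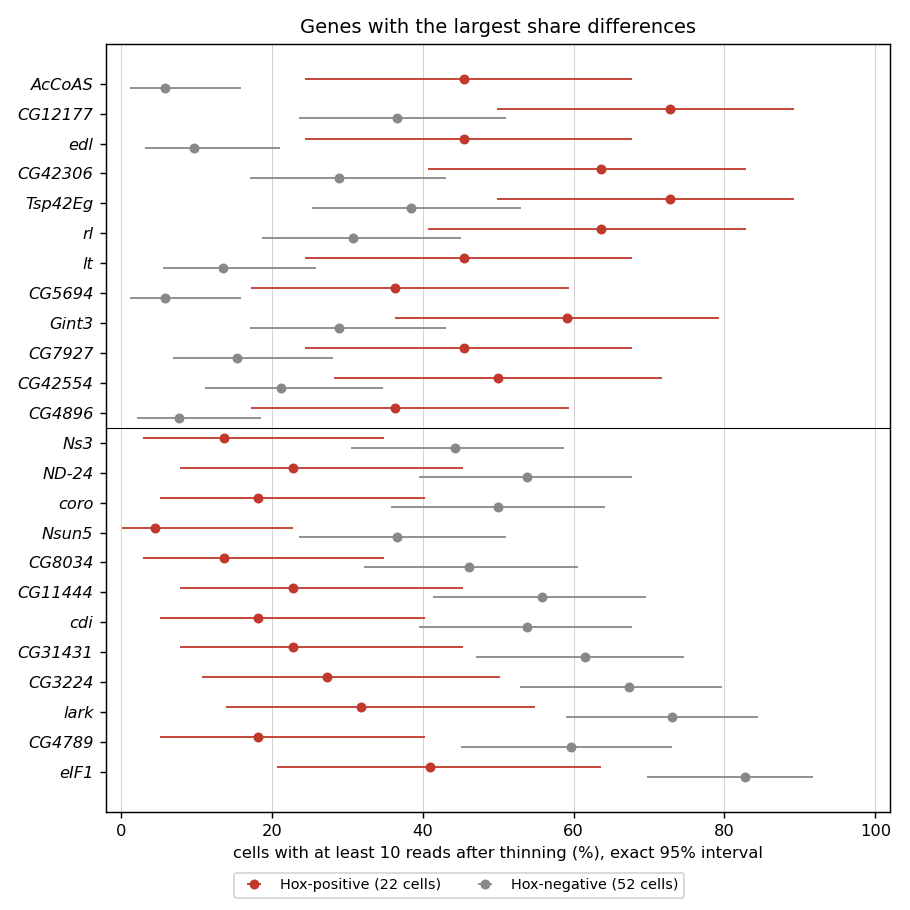
Share of cells with at least 10 thinned reads of the 12 genes with the largest positive (top) and negative (bottom) differences, in 22 Hox-positive and 52 Hox-negative cells, with exact 95% intervals. The intervals are apart for AcCoAS, edl and CG5694 at the top and for Nsun5, CG31431, CG3224, lark, CG4789 and eIF1 at the bottom, and overlap for the others.

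The lower genes were measured beside differences in the make-up of the libraries, whose part was not tested. The summed level of 87 cytoplasmic ribosomal protein genes had a median of 153799 CPM in Hox-positive cells (35296 to 286190) and 225540 in Hox-negative cells (57508 to 386834). Of 84 ribosomal protein genes counted, 0 passed the rule, and their median difference was -4.55 points. Over all genes counted, 1.56% were higher and 2.97% lower, with a median of -2.97 points. The median cell of either group had 82 of the 87 detected, so the share part of the rule says little about their level. The fewest genes detected after thinning were 460 in a Hox-positive cell and 937 in a Hox-negative cell, while the medians were 1283.5 and 1271. Under 1000 genes were detected in 4 lab cells, 3 of them on plate 9, and in 2 Hox-negative cells. Without these 6 cells the eIF1 difference was -32.0 points and that of AcCoAS 38.4 points.

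Since lab cells made up most of the Hox-positive group, they were compared with the Hox-negative cells on their own. All 16 were deep enough. Of 2937 genes counted, 86 (2.93%) were higher and 170 (5.79%) were lower in the lab cells, with a median difference of -2.88 points over all. Without plates 13 and 14, which left 6 lab cells, the shares of genes were 6.21% and 20.05%. Of those 6 lab cells, 3 were the plate 9 cells with under 1000 genes detected, whose part in these shares was not tested. Both comparisons share the Hox-negative cells and the lab cells themselves, so 1 is not support for the other.

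Of the genes listed as midgut progenitor factors, most of those counted had a higher share in lab cells, but 1 of them passed the rule of size. The zinc finger TF peb was detected in 15 of 16 lab cells (93.8%, interval 69.8 to 99.8) and 34 of 52 Hox-negative cells (65.4%, interval 50.9 to 78.03). The homeodomain TF zfh2 was detected in 14 of 16 (87.5%) against 34 of 52, and exex in 11 of 16 (68.8%) against 24 of 52 (46.2%). GATAe, a GATA factor of the endoderm, and the SoxE gene Sox100B were each detected in 10 of 16 (62.5%), against 22 and 25 of 52 Hox-negative cells. Sox21a was detected in 3 of 16 against 9 of 52, and Snoo in 4 of 16 against 13 of 52, a difference of 0 points. The other 4 factors of the list were in too few cells to be counted, with Dl in 1 of 16 against 7 of 52, chn in 1 against 5, pros in 1 against 0 and nub in 0 of both. Of the 7 genes of this list that were counted, exex passed the rule, with 2.27-fold the mean CPM, and the other 6 did not. Part of the zfh2 exons (18.7%) overlap Thd1, so some of its reads may be shared. For exex the difference of 22.6 points was 10.3 points without the cells of under 1000 genes. The median difference of the list was 20.2 points, beside -2.88 points over all genes counted, of which 2.93% were higher and 5.79% lower. For all Hox-positive cells 0 of the 7 passed, with a median of 11.9 points. In the thinned data the lab cells had 3 to 6 of the 11 factors, with a median of 4, and the Hox-negative cells 0 to 7, with a median of 3.

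Of the 3 imaginal primordium genes counted, hdc and sna did not pass the rule and mirr was lower, as were 5.79% of all genes counted. The gene hdc, a marker of imaginal cells, was detected in 16 of 16 lab cells and 50 of 52 Hox-negative cells. The endodermal TF fkh was detected in 15 of 16 and 45 of 52, and sna, a relative of esg, in 14 of 16 and 42 of 52. The esg level itself, which the rule used only through its limit, had a median of 2432 CPM in lab cells (824.9 to 5764) and 1417 CPM in Hox-negative cells (110 to 8511), and the ranges overlapped.

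Other homeodomain TFs differed between lab and Hox-negative cells. Ptx1 (3R, 30912754 to 30930682), a paired-like homeodomain TF of the Pitx family with regional expression in the midgut, was detected in 6 of 16 lab cells (37.5%, interval 15.2 to 64.6) and 4 of 52 Hox-negative cells (7.69%, interval 2.14 to 18.5). In those 6 lab cells Ptx1 had 2325, 2267, 1677, 1307, 1306 and 582.3 CPM, and of the others 1 had 9 reads and 9 had 0. The 6 cells came from plates 1, 9, 13, 14, 16 and 17, and the difference was 40.01 points within plates and 57.8 points without plates 13 and 14. The Iroquois TF mirr (3L, 12693639 to 12710249) went the other way. It had 10 thinned reads in 0 of 16 lab cells, which allows a share of up to about 18.8%, against 20 of 52 Hox-negative cells (38.5%, interval 25.3 to 52.98). The limit at 0 is 3 over the number of cells, an approximation somewhat below the exact limit. In the full reads 1 lab cell had 45 reads of mirr and the others had 0, and the mean level was 6.204 ± 24.8 CPM against 443.97 ± 741.5. The NK2 homeodomain TF vnd was detected in 1 of 16 against 18 of 52 cells (6.25% and 34.6%), with intervals that overlapped.

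Of the 10 homeodomain genes other than the Hox genes that were counted for all Hox-positive cells, Ptx1 was higher, mirr and vnd were lower and 7 did not pass. Their median difference was -1.66 points. Over all genes counted, 1.56% were higher and 2.97% lower, with a median of -2.97 points. For mirr the pooled difference of -24.8 points was -10.0 points without plates 13 and 14, while in lab cells it was -40.0 points. The 3 thinned Hox-positive cells with mirr were the Antp cell (990.2 CPM), the Scr cell (1584 CPM) and the cell with Ubx, abd-A and Abd-B (347.6 CPM). Over all 83 members mirr was detected in 27 cells and Ptx1 in 11, and together in 1, against 3.58 if they were independent. At such small counts the difference was not tested.

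**Figure D4:**
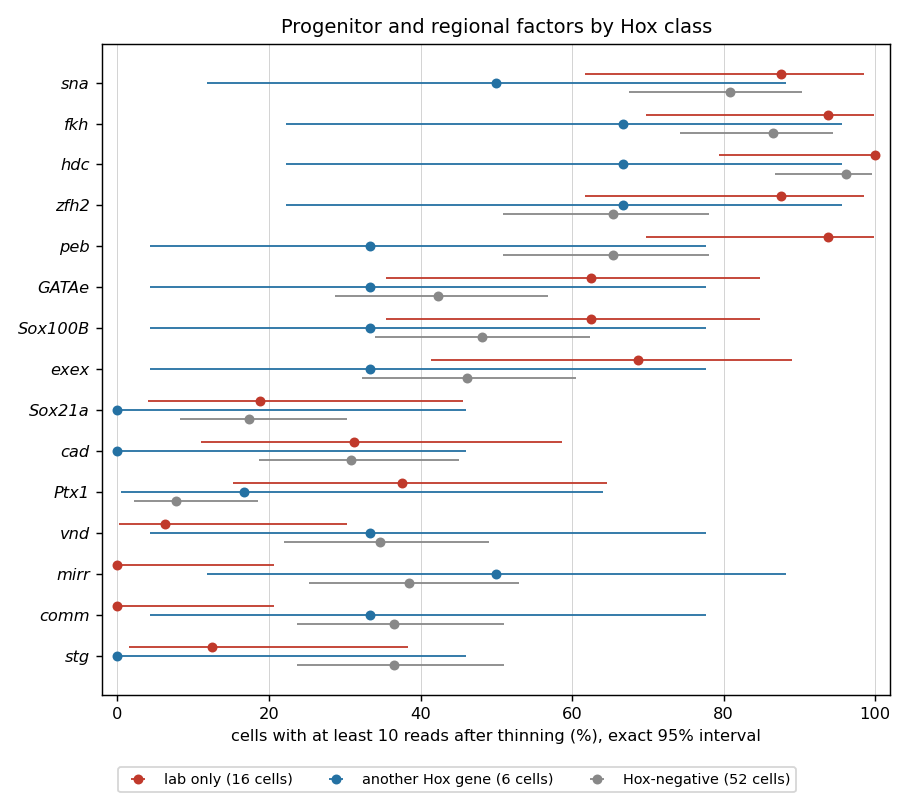
Share of cells with at least 10 thinned reads of progenitor and regional genes in 16 lab cells, 6 cells with another Hox gene and 52 Hox-negative cells, with exact 95% intervals. For mirr and comm the lab cells are at 0 while 38.5% and 36.5% of Hox-negative cells have them, and Ptx1 is at 37.5% against 7.69%.

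The axon guidance gene comm, whose product sorts the receptor Robo away from the cell surface, had 0 reads in every lab cell in the full data. It was detected in 19 of 52 thinned Hox-negative cells (36.5%, interval 23.6 to 51.04), at a mean of 143.98 CPM. The zinc transporter gene foi was detected after thinning in 0 of 16 lab cells and in 19 of 52 Hox-negative cells, and in the full reads in 2 of 16 against 26 of 59. The annexin gene AnxB9 was detected in 2 of 16 lab cells (12.5%) against 32 of 52 (61.5%), and was 5.57-fold lower in mean CPM. Flo1, a flotillin, and Mondo, a TF that responds to sugars, were each detected in 2 of 16 lab cells against 29 of 52 Hox-negative cells. In contrast, lark and CG8034, which were lower by 41.8 and 33.7 points in lab cells, differed by -4.44 and -6.67 points without plates 13 and 14.

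The genes highest in lab cells against Hox-negative cells were led by those of the pooled comparison. CG12177 was detected in 14 of 16 lab cells (87.5%, interval 61.7 to 98.4), at 2193 ± 1878 CPM against 348.7 ± 705.1 in Hox-negative cells, and by 38.8 points within plates. Its level was 0 in 2 lab cells, had a median of 1898 CPM and reached 6656. Tsp42Eg was detected in 13 of 16 (81.2%) and by 58.3 points within plates, with a median of 1270 CPM in lab cells and 0 in Hox-negative cells. The gene edl was detected in 8 of 16. CG42240 and CG5039 were each detected in 7 of 16 lab cells (43.8%, interval 19.8 to 70.1), in 3 of 52 Hox-negative cells (5.77%), and in 0 thinned cells with another Hox gene. The exons of CG5039 overlap those of CG4743 on the other strand, and their reads cannot be told apart.

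The lipase gene bmm, which frees fatty acids from stored fat, was detected in 7 of 16 lab cells (43.8%) against 5 of 52 (9.62%), at 608.7 ± 1403 against 61.7 ± 270 CPM, a difference of 33.1 points within plates. The neuropeptide F receptor gene NPFR was also detected in 7 of 16, against 8 of 52 (15.4%), and by 31.7 points within plates. The difference of pnt in lab cells, 31.2 points, was 14.2 points within plates.

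**Figure D5:**
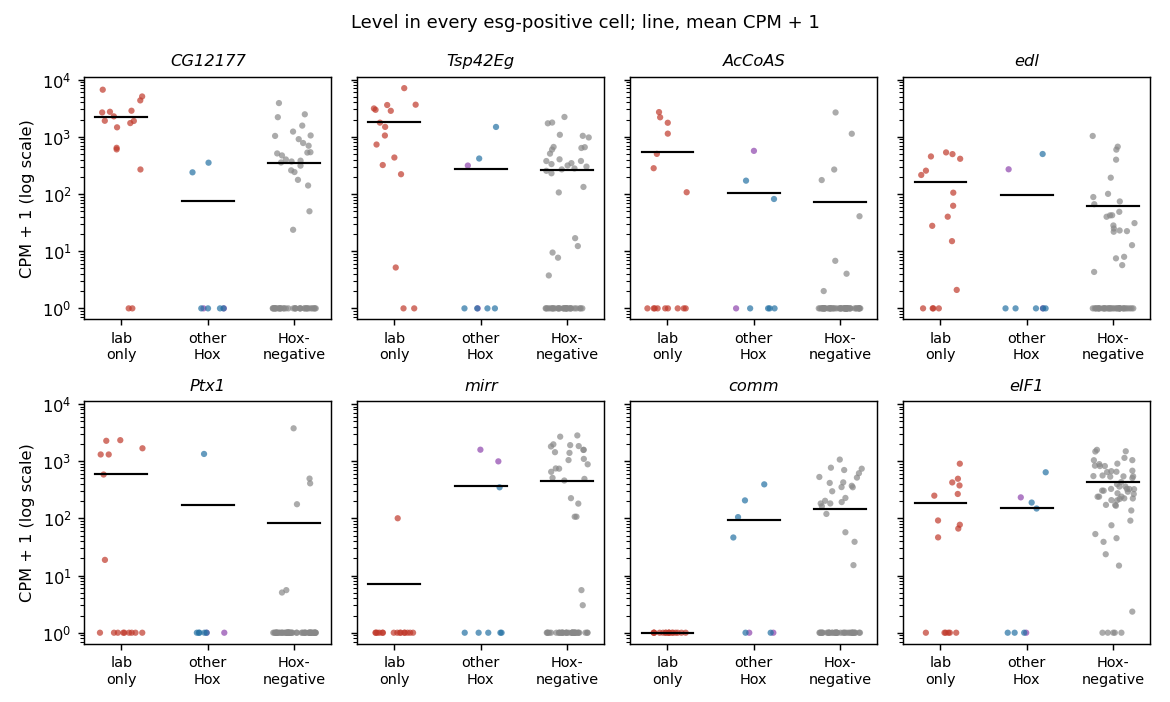
Level in CPM + 1 (log scale) of 8 genes in every esg-positive cell, by Hox class (red, lab only; purple, Antp or Scr only; blue, bithorax only; grey, Hox-negative), with lines at the mean CPM + 1. CG12177 and Tsp42Eg are spread through most lab cells, Ptx1 and AcCoAS are carried by few cells, and comm is at 0 in all lab cells.

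The single cell cycle gene that passed the rule was stg, the Cdc25 phosphatase that triggers entry into mitosis. It was detected in 2 of 22 Hox-positive cells (9.09%, interval 1.12 to 29.2) and 19 of 52 Hox-negative cells (36.5%, interval 23.6 to 51.04), and by -32.1 points within plates. Both of these Hox-positive cells carried lab. The other 3 cell cycle genes counted (E2f1, dap and Mcm6) did not pass, with -10.0, 9.44 and -6.29 points. Over all genes counted, 2.97% were lower.

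The other lists fixed for this comparison held few genes past the rule, beside 1.56% higher and 2.97% lower over all genes counted. Of 13 genes of cadherin and integrin adhesion counted, 1 was lower (rhea, the talin gene, in 3 of 22 against 18 of 52 cells) and 12 did not pass. Of 4 contractile genes, Zasp52, which encodes a protein of the Z-disc, was lower (4 of 22 against 20 of 52), and of 3 glial genes, loco, an RGS protein gene, was lower (5 of 22 against 26 of 52). For all 3 the within-plate differences were smaller, -14.5, -16.5 and -12.8 points, and without thinning that of rhea was -7.34 points. No gene passed among the 7 counted of the Notch pathway, the 6 of the Wnt, Hedgehog, Dpp and JAK/STAT pathways, the 6 of the Polycomb and trithorax groups, the 4 neuroblast factors or the 11 stress genes. The Hox cofactor exd was detected in 8 of 22 and 16 of 52 cells. Its partner hth was detected in 2 thinned cells of each group.

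Few markers of other cell types were detected in the median cell of either group, but single cells held more. The highest summed levels in a Hox-positive cell were 13172 CPM for neuronal and 4317 CPM for tracheal genes. In a Hox-negative cell they were 3711 CPM for hemocyte and 3023 CPM for fat body genes. Of 11 neuronal genes the median cell of either group had 1 detected, and elav, the defining marker, was detected in 3 of 22 and 10 of 52 cells. Of 9 hemocyte genes, of 2 fat body genes and of 5 tracheal genes the median cell had 0 detected in either group. The limits on apolpp, FASN1, prc, Ppn and Mhc removed cells with some of these markers by design.

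The 8 Hox-positive cells without lab did not form 1 kind of cell, and their 2 classes were too small for a comparison of genes. The cell with Antp (plate 16) and the cell with Scr (plate 6) carried the progenitor genes zfh2 (2182 and 1659 CPM), exex (763.4 and 632.3 CPM), fkh (1699 and 1975 CPM) and sna (4402 and 447.6 CPM), and both had mirr and vnd. Of the 11 midgut progenitor factors, 6 were detected in the Antp cell and 2 in the Scr cell.

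Among the 6 bithorax cells, the cell with 163.2 CPM of Abd-B (plate 8) had 5 of the 11 factors, with 4854 CPM of sna and 2348 CPM of peb, and also 1287 CPM of drm, a zinc finger gene active at the foregut and hindgut ends of the midgut. The other cell with Abd-B alone (plate 13, 14.4 CPM) had 909.7 CPM of fkh, 191.3 CPM of byn, the Brachyury TF of the hindgut, and 350.3 CPM of hth. The cell with abd-A and Abd-B (plate 13, 1441 and 334.9 CPM) had 805.8 CPM of zfh1, a TF of the mesoderm and motoneurons, and 762.2 CPM of esg, but 0 reads of fkh. These cells thus carried different sets of TFs. The cell with Ubx, abd-A and Abd-B (plate 15) had 26 reads of esg, beside 1508 CPM of Syt1, a synaptic vesicle gene, 1335 CPM of Ptx1 and 53 reads of elav, and it also had reads of tsh, a TF of the trunk. Of the cells with abd-A alone, the one of plate 2 (1913 CPM) had 26 reads of esg, 1137 CPM of zfh1 and 616.5 CPM of hth, and the one of plate 8 (199.4 CPM) had 74 reads of esg and 2965 CPM of fkh. Taking the bithorax cells as a class, 1 to 5 of the 11 factors were detected, with a median of 2, whereas lab cells had 3 to 7, with a median of 5.

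Transcripts of the Hox genes were estimated separately in the deposited values. For lab, 77.6% of the reads in the 16 cells were given to 1 transcript, which led in 10 cells, and 22.4% to another, which led in 6. The 4 Abd-B cells had 99.8% of the reads on the same transcript. The targeted primers add reads at fixed places of these genes, so the split between transcripts need not follow their amounts in the cell.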

How the data were processed

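Smart-seq2 cDNA of single sorted cells was sequenced as single-end reads. The authors trimmed poly-A, quantified the reads with kallisto (0.43.0, beside R 3.5.1 in the submitters' processing notes) on BDGP6 cDNA, and deposited expected (estimated) counts per gene for the series, and estimated counts and TPM per transcript for each cell. The deposited estimated counts of the series table are whole numbers, were used as given, and lay within 0.51 reads of the transcript sums for 99.95% of values. In 1 alternative, transcript TPM as the authors deposited it replaced CPM. All 837 columns of the table were matched to a cell and 0 were left over. No cell was duplicated.

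Of the 837 cells, 809 passed the gene filter, and 726 of these were not members. From these, with Python 3.11.15, NumPy 2.4.6, pandas 2.3.3 and SciPy 1.17.1, CPM was computed over reads outside 11 ribosomal RNA features, which held 25.5% of the reads of the median member. Total reads of a cell ranged from 98988 to 6870936. Cells were thinned without replacement to 116161 reads outside ribosomal RNA, the 10th percentile over the members. Genes detected (10 thinned reads) in at least 10 cells were counted, without the genes of the rule. Intervals cover counting error only, since PCR reads without molecular identifiers are not independent molecules. No doublet caller was run.

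The members and gene lists were chosen with earlier results of these data known. Named genes are the 12 largest share differences past the rule in each direction, up to 4 per list, the top 5 of the lab class (at least 30 points higher), the Hox genes and the genes of the rule. Genes outside this rule, among them AnxB9, Flo1, Mondo, comm, foi, bmm, NPFR, hth and those given for single cells, were added after their values were seen. The Hox and named gene coordinates come from the Ensembl annotation of BDGP6. The size rule was run on simulated cells with changes planted in known genes. Apart from library size these cells held no differences between plates, so the run says nothing about the plate imbalance of the real cells. No sequence is shown.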

Additional observations from a re-analysis of the deposited data

Results flagged for a closer look

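Reads outside the comparisons were those on ribosomal RNA features, which no comparison used. They took a median of 25.5% of the reads of an esg-positive cell (1.49 to 91.2%), far above the limit that a count of 0 would allow at the median depth (3 reads, or 0.000577%). The medians were 24.9% in Hox-positive and 25.8% in Hox-negative cells. With 1 group in the labels and no replicate samples, neither samples far from their group nor effects that differ between groups could be looked for.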

How the results depend on the processing

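No paired analysis was possible because the labels hold a single group with no replicates paired across groups, and plates, which hold cells of both classes, were used only to weight share differences. The share of Hox-positive cells (28.9%) was 43.4% with a Hox gene at 1 or more reads, 18.1% at 50 or more reads and 18.8% without plates 13 and 14, and 23.9 to 32.9% when each plate was left out in turn. Of the genes counted, the percentage higher in Hox-positive cells (1.56) was 1.16 for genes detected in at least 20 cells, 4.10 for cells with 50 or more Hox reads against cells with 0, 2.65 without plates 13 and 14, 2.50 among cells with exex or GATAe, and 2.73 without the cells of under 1000 genes, and 1.41 to 2.78 with each plate left out (2.59 without plate 9, 2.78 without plate 13). The percentage lower (2.97) was 2.38 with detection at 20 reads (60 genes against 93), 6.31 for 50 or more Hox reads against 0, 11.01 without plates 13 and 14 and 5.92 among cells with exex or GATAe, and 2.75 to 6.62 with each plate left out (6.62 without plate 13, 5.82 without plate 14). For lab cells, the percentage higher (2.93) was 2.81 for genes in at least 20 cells (42 genes against 86), 5.32 for 50 or more reads against 0, 6.21 without plates 13 and 14 and 4.79 without the cells of under 1000 genes, and 2.69 to 4.54 with each plate left out (4.54 without plate 13). The percentage lower (5.79) was 4.37 with detection at 20 reads, 3.81 for genes in at least 5 cells, 5.56 for genes in at least 20 cells (83 genes against 170), 9.62 for 50 or more reads against 0 and 20.05 without plates 13 and 14, and 5.57 to 10.81 with each plate left out (10.06 without plate 13, 10.81 without plate 14). The cause was not tested. The comparisons without plates 13 and 14 together, within plates, limited to exex or GATAe cells, or without cells of under 1000 genes, and all settings of the lab comparison, were chosen after seeing the data.

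Of 2856 share differences of named genes under alternatives, 2838 stayed within the 95% counting interval of the main difference (Newcombe), an interval that is wide at these cell numbers, and 18 left it. Most of these alternatives left out a single plate and kept most of the same cells, so they could hardly leave the interval. No gene past the rule changed sign, but 71 values of genes not past it did, among them peb (11.9 to -4.66 points) and Sox100B (6.47 to -5.16) in Hox-positive cells without thinning. Among genes past the rule, lark in lab cells went from -41.8 to -4.44 points without plates 13 and 14 and pnt in Hox-positive cells from 20.5 to 1.47 points within plates. Of the list medians, 7 values moved by more than the SD over the genes of the list (20 points for a list of 1 gene). Cells are 1 sample without replicate animals, so nothing here measures differences between embryos. At 16 lab cells a count of 0 allows a share of up to about 18.8%, by the approximation of 3 over the number of cells.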
